A study of Arabidopsis thaliana with 24 samples.

Results

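ATIM (AT5G52910) is the Arabidopsis homolog of TIMELESS. It is 1 of the 12374 genes that the annotation tables name singly for a kept probe set, it has 1 of the 22810 probe sets of the ATH1 array, and it lies on chromosome 5. The gene was picked because its response to light differed between sdg8-5 and WT shoots. Its levels, its light differences and its genotype differences are therefore given as a description with no test, and tests are kept for the effect of sucrose and for its interactions, which the choice did not use.

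TIMELESS was first described in Drosophila as a clock protein that pairs with PERIOD and is lost in light. The branch of the family that is shared with yeast and mammals travels with the DNA replication fork, where in those organisms it works with a small partner protein to keep the helicase and the polymerases together, to signal stalled forks and to help sister chromatids stay joined. The name ATIM rests on that kinship in sequence. SDG8, the gene missing in sdg8-5, encodes a histone lysine methyltransferase that places methyl groups on lysine 36 of histone H3 along transcribed genes.

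RNA came from shoots of 3-week-old plants grown in liquid medium with 1% sucrose. sdg8-5 (earlier called cli186) carries a deletion, made with fast neutrons, that takes out SDG8 with its promoter and part of the next gene, and WT is the line it was made in, so that both hold the pASN1-HPT2 reporter transgene. sdg8-5 and WT plants were kept without sucrose under foil for 24 h and then treated for 2 h in 4 ways: with 1% sucrose in light of 70 µE (+C+L), in the same light without sucrose (-C+L), with 1% sucrose in darkness (+C-L), or without sucrose in darkness (-C-L). Each of the 8 groups has 3 arrays from 3 sets of biological replicates, 24 arrays in all, and the labels do not say how many plants went into 1 sample.

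The authors deposited linear MAS5 intensities, each array with a 2% trimmed mean of 500 and with medians of 180.5 to 223.3. Arrays of 1 group correlated at 0.914 to 0.942 over log2 values. SDG8 has no probe set under its name in the annotation used, so its own signal did not check the genotypes. Of 7 green shoot markers 6 were measured, led by the rubisco activase gene RCA, whose intensity was 4418 to 18347 over the 24 arrays. Light raised 5 of the 6 (median log2 difference of the 6, 1.14), against 19.8% of all probe sets at a false discovery rate of 0.05. In sdg8-5, 4 of the 6, LHCB4.2, LHCB4.3, SBPASE and PSAN, were lower (median log2 difference of the 6, -0.37), against 10.5% of all probe sets. The part of these shifts in the results below was not tested. The flower markers AMS and AT5G07230 stayed at or under 60.0 on every array. Of the root markers, EXPA7 was at 3.6 to 157, and PYK10, a glucosidase of roots and seedlings, was at 3406 to 8568, with log2 differences of -0.10 between sdg8-5 and WT and of 0.06 between light and darkness that did not pass the test. The reference genes AT2G28390 and PEX4 were both lower in light, with log2 differences of -0.25 each (FDR = 0.00972 and 0.0116). In whole shoots, fewer cells with a transcript and less of it per cell cannot be told apart.

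In sdg8-5 shoots, ATIM stood at about the same intensity under all 4 treatments, and WT shoots in light stood there too. Only WT shoots in darkness were higher. With sucrose in light, ATIM had intensities of 151.6, 132.3 and 150.2 in sdg8-5, against 193.9, 99.0 and 141.2 in WT. In light without sucrose it had 121.1, 128.7 and 175.1 in sdg8-5, against 118.7, 180.6 and 149.9 in WT. The genotypes overlapped in both of these treatments.

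With sucrose in darkness, ATIM had 115.9, 112.2 and 168.0 in sdg8-5, against 442.5, 318.6 and 356.9 in WT. In darkness without sucrose it had 139.8, 175.3 and 131.0 in sdg8-5, against 340.5, 367.2 and 249.99 in WT. In darkness the genotypes did not overlap with or without sucrose, and the lowest of the 6 WT dark arrays, at 249.99, was above the highest of the other 18, at 193.9. No array was under 40, the intensity that a probe set had to reach on at least 1 array to be kept.

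**Figure D1:**
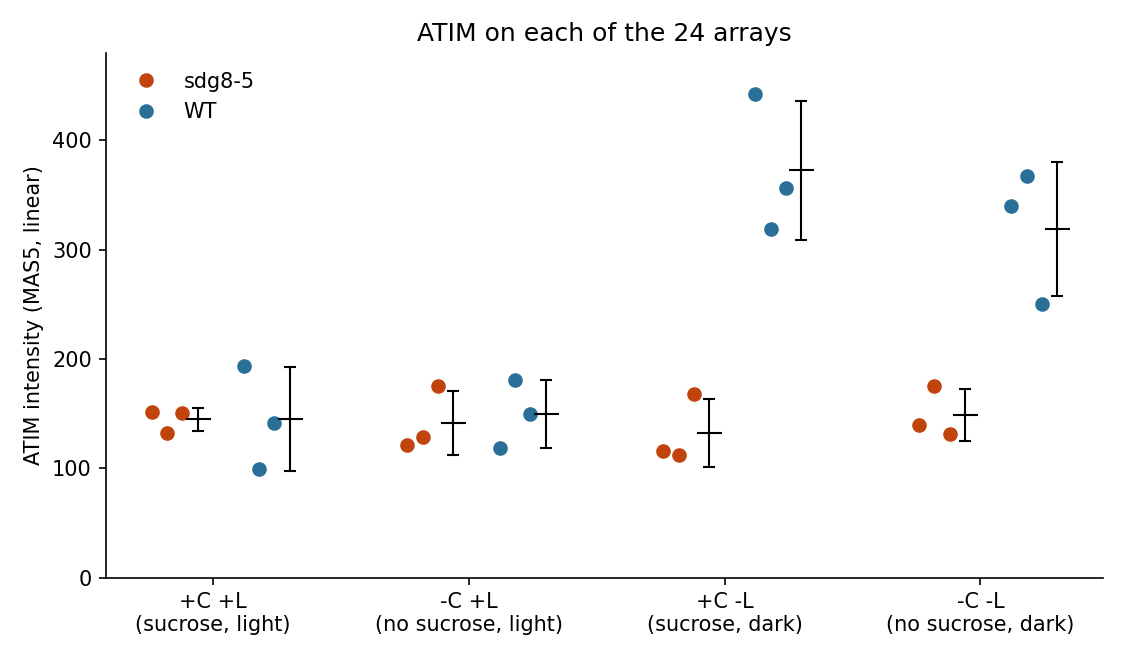
Intensity of ATIM (MAS5, linear scale) on each of the 24 arrays, by treatment, with 3 arrays per group as points in the order of their replicate numbers, and the mean ± SD of each group as a black bar beside them. The 6 WT dark arrays lie at 249.99 to 442.5, and the other 18 arrays lie at 99.0 to 193.9.

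Over the 6 arrays of each genotype in light, ATIM averaged 143.2 ± 19.7 in sdg8-5 and 147.2 ± 36.0 in WT (SD, n = 6 each). In darkness it averaged 140.4 ± 26.3 in sdg8-5 and 345.9 ± 63.0 in WT (SD, n = 6 each). The 18 arrays other than those of WT in darkness averaged 143.6 ± 26.6 (SD, n = 18). The spread relative to the mean was 13.8% in sdg8-5 in light, 24.4% in WT in light, 18.8% in sdg8-5 in darkness and 18.2% in WT in darkness, so the high group was not the most variable one.

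Ordered by their means, the 8 groups ran from WT +C-L at 372.6 ± 63.4 and WT -C-L at 319.2 ± 61.4, through WT -C+L at 149.7 ± 30.9, sdg8-5 -C-L at 148.7 ± 23.5, WT +C+L at 144.7 ± 47.6, sdg8-5 +C+L at 144.7 ± 10.8 and sdg8-5 -C+L at 141.7 ± 29.2, down to sdg8-5 +C-L at 132.0 ± 31.2 (SD, n = 3 each). Of the 7 steps between neighbours in this order, 1 was larger than the larger SD of its 2 groups, the step of 169.5 between WT -C-L and WT -C+L. The other 6 were 0.04 to 53.4, each under the larger SD of its pair, and their arrays overlapped.

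On the log2 scale, ATIM differed between light and darkness by 0.04 ± 0.17 in sdg8-5 and by -1.25 ± 0.17 in WT (estimate ± standard error from the fit to all 24 arrays), so that WT shoots in light had 2.38-fold less signal than WT shoots in darkness. Between sdg8-5 and WT the difference was -0.01 ± 0.17 in light, with a 95% interval of -0.38 to 0.35, and -1.30 ± 0.17 in darkness, 2.46-fold less signal in sdg8-5. The light difference in WT and the genotype difference in darkness share the 6 WT dark arrays and are not independent of each other. The light response was 1.29 ± 0.24 more positive in sdg8-5 than in WT.

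The pattern was present in both sucrose treatments. With sucrose, the light difference was 0.15 in sdg8-5 and -1.40 in WT, and without sucrose it was -0.08 in sdg8-5 and -1.09 in WT (standard error 0.24 each). In darkness, sdg8-5 minus WT was -1.51 with sucrose and -1.09 without it. In light it was 0.05 with sucrose and -0.08 without it. Taken between arrays of the same replicate number, the light difference was -0.45 to 0.42 in sdg8-5, negative in 3 of 6, and -1.69 to -0.74 in WT, negative in 6 of 6. It is not settled whether the numbers pair the samples, and these ranges are given only to show how far single arrays varied.

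In the fit over all probe sets, ATIM was the last of the 8 probe sets (0.0371% of 21552) inside the threshold for a genotype by light difference, a false discovery rate (FDR) of 0.15. Its FDR was 0.14. Of the 7 before it, 1 has a gene name in the annotation used, AT4G11900, with a log2 difference of 2.81 and an FDR of 0.0659. Just outside stood AT2G28200, with a log2 difference of 1.05 and an FDR of 0.152. These values chose the gene and are given as its place in the table only.

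Some properties of the arrays differed between the same groups. The 25S rRNA control probe set, which reads ribosomal RNA, averaged 2117 in sdg8-5 and 425.9 in WT in light, and 10514 in sdg8-5 and 4260 in WT in darkness. Of the 12 arrays with the higher signal of the bioC spike-in control, 8 were sdg8-5 and 4 were WT, and 2 of those 4 were WT dark arrays. With the 25S signal as a covariate, the light response of ATIM was 1.29 ± 0.25 more positive in sdg8-5 than in WT. The light differences were 0.03 ± 0.35 in sdg8-5 and -1.26 ± 0.36 in WT. The covariate moved both by nearly the same amount, from 0.038 to 0.032 in sdg8-5 and from -1.249 to -1.255 in WT. This fit could thus hardly move the genotype by light difference and is no check of it. The higher bioC signal was on 2 of 3 arrays in every sdg8-5 group and on 1 of 3 in every WT group, so a block for it cannot move this difference and does not bear on it.

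Sucrose did not shift ATIM to a degree that passed the test. ATIM differed by 0.00 ± 0.12 on the log2 scale between arrays with and without sucrose, with a 95% interval of -0.25 to 0.26 (limma, FDR = 0.993). A two-sided exact permutation test over 160000 relabellings, within each genotype and light treatment, gave p = 0.984. A sucrose effect was called for 22.5% of all probe sets at an FDR of 0.05.

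Within the 4 combinations of genotype and light, the sucrose difference of ATIM was 0.05 in sdg8-5 and -0.08 in WT in light, and -0.19 in sdg8-5 and 0.23 in WT in darkness (standard error 0.24 each). The WT dark arrays with and without sucrose overlapped. The sucrose response differed between sdg8-5 and WT by -0.14 ± 0.24, with an interval of -0.65 to 0.37 (FDR = 1.00, with 0.00464% of probe sets called at 0.15). It differed between light and darkness by -0.04 ± 0.24, with an interval of -0.55 to 0.47 (FDR = 0.976, with 0.339% called at 0.05). The three-way difference was 0.54 ± 0.49, with an interval of -0.48 to 1.57 (FDR = 0.999, with 0.00464% called at 0.05). With 3 arrays per group these intervals are wide, and the three-way one would hold a difference as large as the genotype by light difference itself.

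**Figure D2:**
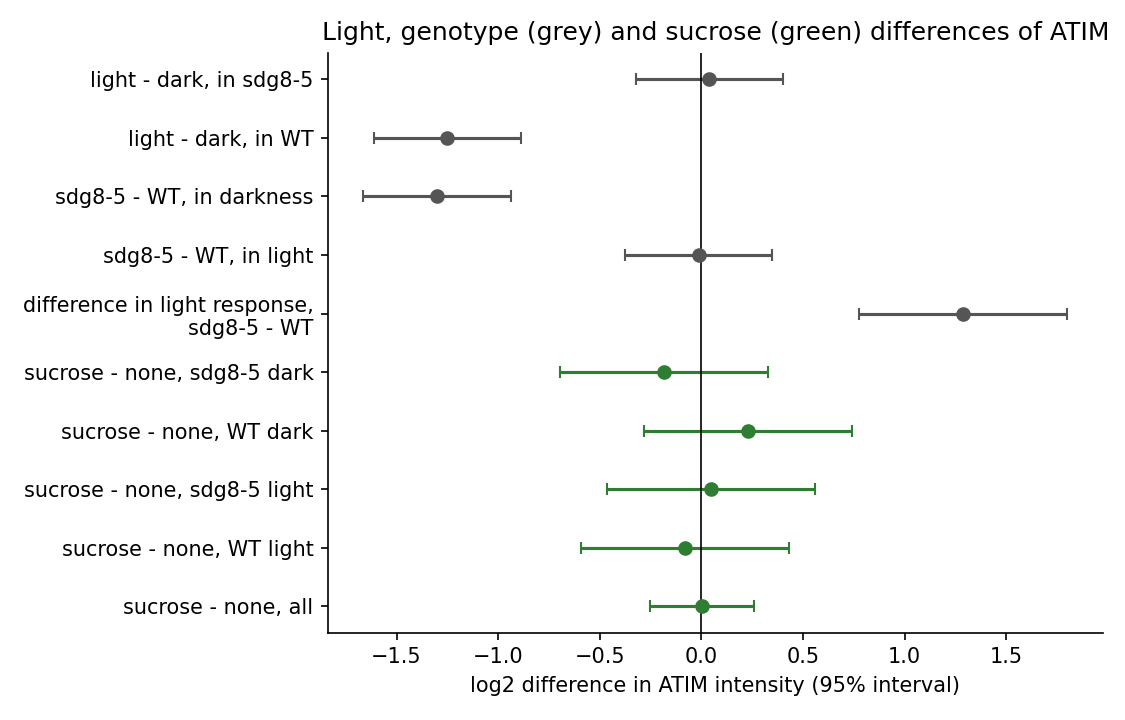
Log2 differences of ATIM intensity with 95% intervals from the fit to all 24 arrays, light and genotype differences in grey (used to pick the gene, not tested) and sucrose differences in green. The light difference in WT was -1.25, the sdg8-5 minus WT difference in darkness -1.30 and the difference in light response 1.29. The gene was picked on the last of these, so the place of their intervals is no test. The intervals of all sucrose differences, which the choice did not use, include 0.

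ATIM shared its kind of pattern with few other probe sets. All 6 WT dark arrays were above all other 18 arrays for 83 of 21490 probe sets (0.386%), ATIM among them. The corresponding counts were 26 for sdg8-5 in light, 142 for WT in light and 20 for sdg8-5 in darkness. Among these 83, ATIM had the ninth largest gap between the lowest WT dark array and the highest other array, 0.37 on the log2 scale. It had the third largest genotype by light difference, the value on which it was picked. This set was drawn up after its values had been seen and gets no test.

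The 83 were not alike in the 3 lower corners, sdg8-5 in light, WT in light and sdg8-5 in darkness. In the other 82 probe sets the median light difference was -0.45 in sdg8-5 and -0.74 in WT, and the median of sdg8-5 minus WT was -0.42 in light and -0.75 in darkness. For ATIM the first and the third of these were 0.04 and -0.01. Of the 82, 2 had both of them within 0.1 of 0. The sucrose effect passed the test for 18 of the 82, near the 22.5% of all probe sets.

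Of the 82, 56 have 1 gene in the annotation and 10 of these have a gene symbol. FHL, a partner of FHY1 in carrying phytochrome A into the nucleus, had a median intensity of 95.2 (55.7 to 158) in sdg8-5 and 107 (72.6 to 170) in WT in light, and of 254 (233 to 464) in sdg8-5 and 740 (554 to 774) in WT in darkness (lowest to highest of 6). FHL was thus also highest in WT in darkness, but it was lower in light in sdg8-5 as well, by 1.63 on the log2 scale.

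EXPA8, an expansin that loosens cell walls, had a median of 163 (75.2 to 310) in sdg8-5 and 215 (115 to 548) in WT in light, and of 314 (245 to 502) in sdg8-5 and 1073 (705 to 1206) in WT in darkness. CYP71B22, a cytochrome P450, had a median of 136 (83.7 to 245) in sdg8-5 and 255 (173 to 378) in WT in light, and of 143 (76.2 to 330) in sdg8-5 and 580 (520 to 766) in WT in darkness. In both genes the WT dark arrays stood alone, as in ATIM, and in light sdg8-5 minus WT was -0.66 ± 0.18 in EXPA8 and -0.89 ± 0.29 in CYP71B22, with overlapping arrays. Unlike ATIM, EXPA8 was also lower in light in sdg8-5, with a log2 difference of -1.11 ± 0.18. It was lower with sucrose as well, with a log2 difference of -0.98 (limma, FDR = 2.39e-05). The light difference of CYP71B22 in sdg8-5 was -0.21 ± 0.29.

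The other 7 were the sphingolipid lyase gene DPL1, the ubiquitin-conjugating enzyme gene UBC22, the autophagy gene ATG8G, the glycosidase gene ENGase85A, DRT100, PRA1.F1 and the disease-resistance gene CSA1. Their genotype by light differences were -0.06 (PRA1.F1) to 0.34 (DPL1), against 1.29 for ATIM, which unlike them was picked on this difference. DRT100, for example, averaged 1202 in sdg8-5 and 1687 in WT in light, and 1667 in sdg8-5 and 2803 in WT in darkness, so that it was lower in light in both genotypes and lower in sdg8-5 with or without light.

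**Figure D3:**
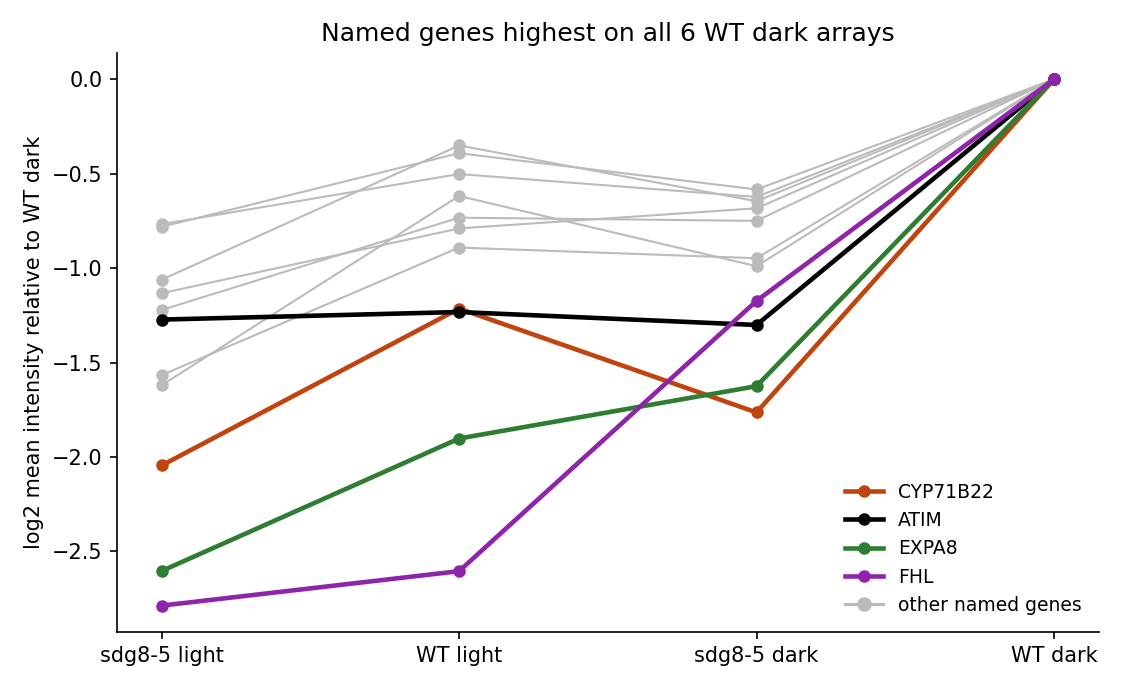
Log2 of the mean intensity over the 6 arrays of each genotype in light and in darkness, relative to WT in darkness. Shown are ATIM and the 10 genes with a symbol whose 6 WT dark arrays were above all other arrays. The line of ATIM (black) is flat over sdg8-5 light, WT light and sdg8-5 dark, while FHL, EXPA8, CYP71B22 and the other genes (grey) differ among these 3 corners.

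Across the 24 arrays, 7816 genes with a mean intensity of at least 100 were ranked by the Pearson correlation of their log2 values with those of ATIM. The arrays share 8 groups, so the correlations mostly read the group means, and they are a description. The correlations ran from -0.826 to 0.821, with 5% of genes under -0.512 and 5% over 0.533. The 5 most like it were AT1G28070 (0.821), AT4G00040 (0.819), AT5G27220 (0.807), AT3G45830 (0.80) and AT1G15920 (0.793). None of the 5 has a symbol in the annotation used, and no function is given for them here.

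AT1G28070, the nearest, averaged 103.6 ± 20.3 in sdg8-5 and 163.7 ± 21.7 in WT in light, and 134.1 ± 34.7 in sdg8-5 and 323.1 ± 71.7 in WT in darkness (SD, n = 6 each). AT1G15920 averaged 486.8 ± 50.7 in sdg8-5 and 600.5 ± 109 in WT in light, and 538.2 ± 91.3 in sdg8-5 and 992.5 ± 205 in WT in darkness. Both were highest in WT in darkness, as ATIM was, with genotype by light differences of 0.61 and 0.59, against the 1.29 on which ATIM was picked. Within groups, after the group means were taken out, the correlation with ATIM was 0.225 (AT1G15920) to 0.566 (AT5G27220) over the 5.

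The 5 genes most opposite were AT5G46230 (-0.826), AT2G41730 (-0.778), AT1G19140 (-0.774), AT2G21640 (-0.770) and AT2G04070 (-0.770). AT2G04070 averaged 623.6 ± 130 in sdg8-5 and 525.6 ± 140 in WT in light, and 464.2 ± 143 in sdg8-5 and 172.9 ± 59.3 in WT in darkness. It was lowest where ATIM was highest, with a genotype by light difference of -1.19, and its group means in the other 3 corners were closer to one another than to that of WT in darkness. AT2G41730 had the largest such difference of the 5, -1.30, on a probe set of the type marked as open to cross-hybridisation.

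On chromosome 5, MAKR6 and PKP-BETA1, the genes next to ATIM on either side, have no probe set under their name, and the nearest 5 on each side that have one lay 2 to 10 places away in gene order. The genotype by light differences of these 10 were -0.11 to 0.89, and the limma test called 0 of them at an FDR of 0.15 (0.0371% of all probe sets) and 0 at an unadjusted p under 0.05 (6.38% of all probe sets). At these shares a count of 0 among 10 genes says nothing particular about them.

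Of these 10 neighbours, 2 were higher in sdg8-5 and 0 lower (9.24% of all probe sets were higher and 10.5% lower at an FDR of 0.05). They were AT5G52850, with 125 ± 28.9 in sdg8-5 and 91.3 ± 26.9 in WT (FDR = 0.0258), and AT5G52980, with 423 ± 53.6 in sdg8-5 and 355 ± 68.2 in WT (SD, n = 12 each, FDR = 0.0287). Light raised 2 of the 10 and lowered 0, against 19.8% and 17% of all probe sets, and these were AT5G52850 (log2 difference 0.39) and AT5G52950. AT5G52950 averaged 73.9 ± 47.2 in sdg8-5 and 82.2 ± 41.2 in WT in light, and 13.9 ± 11.3 in sdg8-5 and 30.9 ± 15.1 in WT in darkness, under 40 in darkness, so that its log2 difference of 1.84 rests on values near background. Sucrose lowered 1, AT5G52960 by 0.27, and raised 0, against 8.99% and 13.5% of all probe sets. The other 5, AT5G52820, AT5G52840, AT5G52880, AT5G52970 and AT5G52975, passed none of these tests. The closest measured neighbour, AT5G52890, averaged 58.8 ± 24.5 in sdg8-5 and 84.4 ± 9.9 in WT in light, and 54.0 ± 31.7 in sdg8-5 and 68.3 ± 14.5 in WT in darkness, a genotype difference of -0.70 with an FDR of 0.185.

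**Figure D4:**
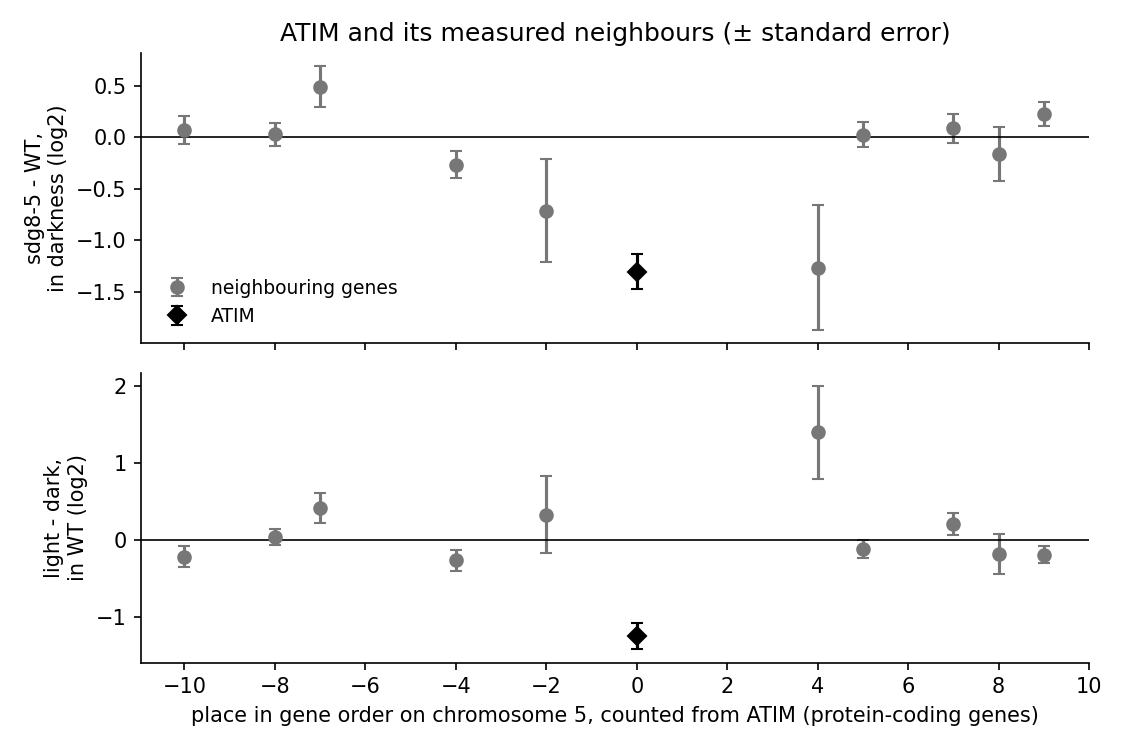
Log2 difference between sdg8-5 and WT in darkness (top) and between light and darkness in WT (bottom), ± standard error, for ATIM (diamond) and the nearest 5 measured genes on each side by place in gene order. ATIM lies at -1.30 and -1.25; AT5G52950, 4 places away, is the only neighbour under -1 in the top panel, with the longest error bars and dark means under 40, and it lies above 0 in the bottom panel.

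Genes whose products work with TIMELESS-like proteins in other organisms, or in the pathways its name points to, were taken from lists of 180 genes: replication fork and cohesion, DNA replication, checkpoint and repair, cell cycle, the circadian clock and light signalling. With ATIM left out, 20 of the 180 have a probe set under their name that was kept, so these counts cover a small share of each pathway, and no cell cycle gene was among them. The lists were chosen with earlier results of these data known. Their counts beside the shares of all probe sets are therefore a description. None of the 20 had a genotype by light difference at an FDR of 0.15 in limma, as 0.0371% of all probe sets did, and 2 had one at an unadjusted p under 0.05, against 6.38% of all probe sets. These counts are near the background and do not set the lists apart. A three-way model on the linear values, a scale the study's methods do not state, called 1, FHL, with an FDR of 0.0162. The share of all probe sets that this model called was not counted, so this count has no background beside it.

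Several replication genes were higher in light, while ATIM in WT was lower. Of the 14 measured genes of the replication, cohesion and checkpoint lists, 7 were higher in light and 0 lower, against 19.8% and 17% of all probe sets. The median light difference of the 14 was 0.49, against 0.02 over all probe sets. PRL, which encodes the helicase subunit MCM7, averaged 278 ± 72.5 in light and 184 ± 74.7 in darkness (SD, n = 12 each, log2 difference 0.68, FDR = 0.0109). POLA3, a subunit of the primase that begins each new strand, averaged 311 ± 65.5 in light and 217 ± 51.3 in darkness (log2 difference 0.53, FDR = 0.00143).

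POLD3, an accessory subunit of DNA polymerase delta, averaged 200.4 ± 40.7 in light and 152 ± 52.6 in darkness (log2 difference 0.45, FDR = 0.0029). ICU2, the catalytic subunit of DNA polymerase alpha, averaged 108 ± 34.4 in light and 74.1 ± 32.6 in darkness (log2 difference 0.62, FDR = 0.0281). The other 3 called were AT3G42660, AT4G17760 and AT1G52530, with log2 differences of 0.75, 0.68 and 1.24. Their lowest arrays were at 17.2, 15.1 and 9.9, under 40. With 16 added before log2, AT4G17760 missed the threshold (FDR = 0.0559). In WT alone, only POLD3 of the called genes passed, with a light difference of 0.57 (limma, FDR = 0.00897). The others had 0.46 (PRL), 0.29 (POLA3), 0.37 (ICU2), 0.33 (AT3G42660), 0.79 (AT4G17760) and 1.32 (AT1G52530). In sdg8-5 alone, PRL, POLA3, ICU2 and AT3G42660 passed. RAD9, which in yeast and mammals is part of a clamp that signals DNA damage, had 87.0 ± 30.0 in light and 62.1 ± 31.8 in darkness, a log2 difference of 0.71 with an FDR of 0.163. On the fork and cohesion list, AT3G02820, AT1G79890 and AT5G47690 had log2 differences of 0.26, -0.13 and -0.01 that did not pass the test. PSF2, a subunit of the GINS complex of the helicase, had 86.5 ± 21.0 in light and 112 ± 24.6 in darkness, a log2 difference of -0.40 with an FDR of 0.074. It passed the test as lower in light under quantile normalization and under median centring (FDR = 0.0222 and 0.0209). Under these same 2 scalings AT3G42660 (FDR = 0.0553 and 0.0581) and AT4G17760 (FDR = 0.0601 and 0.0796) missed the threshold. ICU2 missed it under median centring (FDR = 0.0557).

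With the 25S rRNA signal as a covariate, 5 of the 12 light calls over all lists kept the threshold, and these were GI, HYH, AT3G52740, AT3G44450 and FHL, while the 7 replication, cohesion and checkpoint genes missed it. Their light differences in that fit were 0.37 for POLD3, 0.41 for PRL, 0.55 for AT3G42660, 0.62 for POLA3, 0.72 for ICU2, 0.96 for AT1G52530 and 1.09 for AT4G17760, larger than without the covariate in 3 of the 7 and smaller in 4. Without the 8 arrays of replicate number 2, 6 listed genes were called for light in place of 12. The share of all probe sets called was not counted in these fits, so the lost calls are not a result about the listed genes.

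None of the 14 replication, cohesion and checkpoint genes passed the limma test between sdg8-5 and WT at an FDR of 0.05, against 9.24% of all probe sets higher and 10.5% lower, and 2 had an unadjusted p under 0.05, against 31.6% of all probe sets. PRL averaged 225 ± 103 in sdg8-5 and 236.5 ± 70.6 in WT (SD, n = 12 each). The median genotype difference of the 14 was -0.01. That of ATIM was -0.66 ± 0.12 over all treatments, with -1.30 in darkness and -0.01 in light. It follows from the pattern on which ATIM was picked and does not set ATIM apart from the 14. Sucrose raised 4 of the 14 and lowered 0, against 13.5% and 8.99% of all probe sets, and POLD3, with 208 ± 42.5 with sucrose and 144 ± 40.4 without (log2 difference 0.56, FDR = 0.001), had the lowest FDR of them. PRL, AT3G02820 and AT5G26680 were the other 3. Without the arrays of replicate number 1, or of number 2, the sucrose calls over all lists were 2 in place of 6. The share of all probe sets was not counted there.

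Of the 6 measured clock and light-signalling genes, 4 were higher and 1 lower in light, against 19.8% and 17% of all probe sets, and the clock-list gene AT5G52660 did not pass the test. GI, a clock gene that links the clock to flowering time, averaged 1319 ± 237 in light and 544 ± 165 in darkness (SD, n = 12 each, log2 difference 1.32, FDR = 3.4e-10), and 1088 ± 445 in sdg8-5 against 776 ± 400 in WT (log2 difference 0.58, FDR = 5.6e-05). HYH, a bZIP transcription factor close to HY5, averaged 798 ± 114 in light and 121 ± 72.1 in darkness. AT3G44450 was higher in light by 3.23 on the log2 scale. AT3G52740 averaged 222 ± 54.4 in light and 17.9 ± 17.1 in darkness, where it was under 40, so its log2 difference depends on values near background and was 4.13, or 2.92 with 16 added to each value.

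FHL is both on the light-signalling list and among the genes highest in WT in darkness. It averaged 109 ± 36.3 in light and 510.5 ± 226 in darkness (log2 difference -2.14, FDR = 4.12e-08), and 208 ± 135 in sdg8-5 against 412 ± 315 in WT (log2 difference -0.72, FDR = 0.011). Its light response was 1.03 ± 0.38 more positive in sdg8-5 than in WT on the log2 scale, with an FDR of 0.642. Among the 20, FHL was the 1 gene called lower in light. Without the arrays of replicate number 2, or of number 3, the genotype calls over all lists were 1 in place of 3. For these fits too, the share of all probe sets was not counted.

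**Figure D5:**
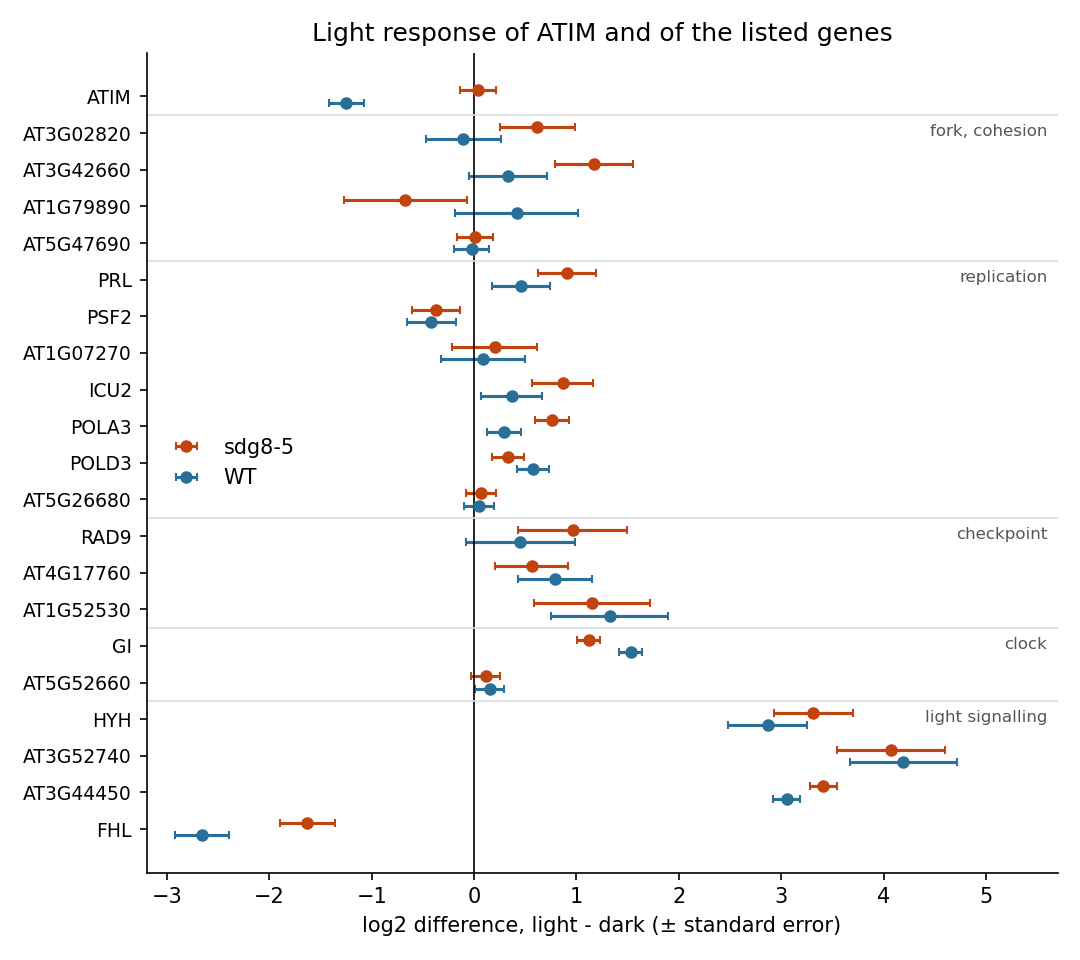
Log2 difference between light and darkness in sdg8-5 and in WT, ± standard error, for ATIM and the 20 measured genes of the lists, grouped by list. ATIM lies at 0.04 in sdg8-5 and -1.25 in WT, most replication genes lie above 0 in both genotypes, and FHL lies at -1.63 in sdg8-5 and -2.66 in WT.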

How the data were processed

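Shoot RNA of sdg8-5 and WT plants was hybridised to 24 ATH1 arrays, 3 for each of 8 combinations of genotype, sucrose and light. The authors computed the deposited intensities from the scanner files with MAS5 in R, on a linear scale; their version and settings are not given in the sources used here. ATIM was chosen on its genotype by light difference, and the gene lists were chosen with earlier results of these data known. Groups came from the sample labels. The probe annotation lists 1 gene for 13513 probe sets and several for 503, and no gene for 8794. Gene names and gene order came from an annotation of another assembly, so no coordinates are given.

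Intensities under 40 on all arrays removed a probe set, and 21552 stayed. Their log2 values were modelled in R 4.3.3 with limma (version 3.58.1; lmFit, eBayes) as 8 group means, and each effect was a contrast between them. The Benjamini-Hochberg adjustment ran over the 21552 probe sets, with thresholds of 0.05, and 0.15 for genotype by light and genotype by carbon. The study's methods name a three-way ANOVA without its scale, and one on linear values was run as an alternative. The 24 arrays limit the precision.

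The genes named are ATIM, the 5 most and 5 least correlated with it, the nearest 5 measured genes on each side, the genes around the threshold for a genotype by light difference, and from each list all measured genes where 4 or fewer were measured or up to 4 with the lowest FDR among those that passed a test. The other replication genes named, and the genes highest on all WT dark arrays, were added after their values were seen. Alternatives were no filter, a filter of 100 on 3 arrays, adding 16 before log2, quantile normalization, median centring, trend and robust estimation, a replicate block, a block for bioC signal, the 25S rRNA signal as a covariate, and leaving out arrays. Figures were drawn with matplotlib 3.10.9 in Python 3.11.15.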

Additional observations from a re-analysis of the deposited data

How the results depend on the processing

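For ATIM, the genotype by light difference was 1.16 to 1.41 over 36 settings, the light difference -1.37 to -1.13 in WT and -0.12 to 0.13 in sdg8-5, and the genotype difference -1.45 to -1.15 in darkness, all within the spread between replicates of the values given. The filters, trend and robust estimation and the replicate block cannot move these log2 estimates. The bioC block cannot move the genotype by light difference, and the 25S rRNA covariate could hardly move it. The ranges therefore come from the other settings. The ANOVA on linear values has no log2 difference and gave an intensity difference of 201.5 ± 33.6 for genotype by light. The gap between the WT dark arrays and the others was 0.34 to 0.47 under the 3 scalings tried, which were chosen after seeing the data. The sucrose effect and its interactions passed the threshold under none of 37 settings (lowest FDR 0.41), and the sucrose estimate, near 0, changed sign in 16. Of the listed genes, 12 were called for light, 3 for genotype, 6 for sucrose and 0 for genotype by light. Quantile normalization gave 3 for sucrose. The 25S rRNA covariate gave 5 for light, 1 for genotype and 2 for sucrose. The ANOVA on linear values gave 1 for genotype by light (FHL). Leaving out a replicate number or a single array gave 6 to 13 for light, 1 to 4 for genotype, 2 to 7 for sucrose and 0 for genotype by light. The share of all probe sets called was not counted under these settings, so these counts do not show whether the listed genes differ from the rest. The cause was not tested. No listed gene that had been called changed sign in the settings other than single arrays left out. Median centring moved the median light difference of all probe sets to -0.08, against 0.02 as deposited. Arrays of the same replicate number had correlations of their deviations of -0.11 to 0.134 (median 0.0251, 6 of 84 over 0.1). Arrays of different numbers had -0.139 to 0.111 (median -0.014, 3 of 168 over 0.1). These correlations are weak and do not settle whether the numbers pair the samples. With a replicate block the genotype by light difference of ATIM was 1.29 ± 0.26, the counts of listed genes were 12, 3, 6 and 0, and PRL missed the threshold for sucrose (FDR 0.0522).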
